A study of Homo sapiens with 4 samples.

Results

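The genes described here encode the subunits of oxidative phosphorylation (OXPHOS), the respiratory chain and the ATP synthase of the inner mitochondrial membrane. Members were protein-coding genes chosen by symbol. They are the NDUFA, NDUFB, NDUFC, NDUFS and NDUFV genes of complex I, SDHA, SDHB, SDHC and SDHD of complex II, the UQCR genes and CYC1 of complex III, the COX4 to COX8 families of complex IV, the ATP5F, ATP5M and ATP5P genes of complex V, and the MT-ND, MT-CO, MT-CYB and MT-ATP mRNAs. NDUFA4, now known as a subunit of complex IV, and its relative NDUFA4L2 were counted in complex I by their symbols. The rule found 102 of 60617 gene entries, 89 in the nucleus and 13 in the mitochondrial genome. Complex I had 39 nuclear and 7 mitochondrial members, complex II 4 nuclear members, complex III 10 and 1, complex IV 17 and 3, and complex V 19 and 2.

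Complexes I to IV pass electrons from NADH and succinate to oxygen, and complexes I, III and IV pump protons across the inner membrane. Complex V lets the protons flow back and makes ATP. Complexes I, III, IV and V are built from subunits of both genomes, so their assembly joins proteins translated in the cytosol with proteins translated on mitochondrial ribosomes, while complex II is wholly nuclear. The mitochondrial mRNAs are cut from long transcripts of each strand, and their levels are then set by separate processing and decay.

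RNA-seq had been run on SKNMC, an established human Ewing sarcoma cell line, kept for 24 h in 1 µM CBL0137 (n = 2 libraries) or in its vehicle DMSO (n = 2 libraries). CBL0137 belongs to the curaxins, DNA-binding compounds that hold FACT, a histone chaperone, in place on chromatin. All cells were grown in serum-containing minimum essential medium. The model is a single cell line, and the labels do not state whether replicate libraries stem from separate cultures, so the p-values reflect spread among these samples that may be technical. With bulk RNA, fewer cells of a type and less RNA per cell cannot be told apart.

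Gene-assigned reads numbered 20767817 and 21061892 with CBL0137 and 20086664 and 19625517 with DMSO. All 10 Ewing sarcoma markers that were looked up were detected, among them FLI1 at 72.6 and 69.5 CPM with CBL0137 and 69.4 and 70.4 CPM with DMSO. CPM values are read counts per library size, scaled between libraries with TMM factors. Of these 10 markers, 0 were called higher and 6 lower with CBL0137 (adjusted p under 0.05 in edgeR and fold above 1.5), against 18.2% and 15.1% of all tested genes. Of 10 markers of other cell types, 3 had enough reads to be tested. PTPRC, a leukocyte gene, stood at 107 and 124 CPM with CBL0137 and 162 and 162 CPM with DMSO, and it made up most of the 10 markers' summed level, 118 and 136 CPM with CBL0137 against 167 and 167 CPM with DMSO. EPCAM and CDH5, epithelial and endothelial genes, were called higher, EPCAM at 7.15 and 8.08 CPM with CBL0137 against 2.59 and 3.12 CPM with DMSO. The epithelial genes CDH1 and KRT5 and the T cell gene CD3E were at 0 in both DMSO libraries. With CBL0137, CDH1 had 12 and 10 reads, KRT5 1 and 2 reads and CD3E 1 and 0 reads, too few to be tested. The part of these differences in the results on OXPHOS genes was not tested.

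Per length, the mitochondrial mRNAs stood above every nuclear member. The deposited FPKM, a level per gene length and sequencing depth, averaged over the 4 libraries, ranged between 611 FPKM for MT-ND3 and 5259 FPKM for MT-CO1 among the 13 mitochondrial mRNAs. The highest nuclear member was ATP5F1B, the catalytic beta subunit of the ATP synthase, at 369 FPKM. It was followed by COX6A1 at 287 FPKM and UQCRH at 258 FPKM. Among nuclear members the median level in complex I was 48.2 and 49.9 FPKM with CBL0137 and 51.7 and 51.9 FPKM with DMSO. Complex V had medians of 64.1 and 63.0 FPKM with CBL0137 and 66.3 and 69.4 FPKM with DMSO, and complex III 45.3 and 47.0 FPKM with CBL0137 and 56.9 and 53.8 FPKM with DMSO. The 3 mitochondrial mRNAs of complex IV had a median of 3277 and 3472 FPKM with CBL0137 and 3882 and 3789 FPKM with DMSO. The sources used here do not give whether polyadenylated RNA was selected, and the distance between the genomes can depend on it.

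**Figure D1:**
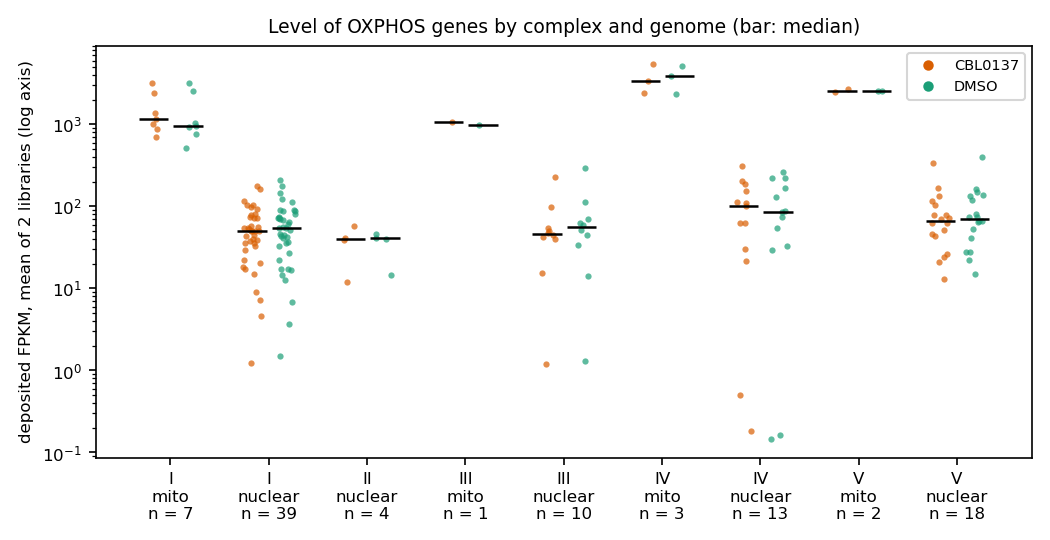
Deposited FPKM of each OXPHOS gene (log axis, mean of 2 libraries per group) by complex and genome of origin, CBL0137 left of DMSO, with a bar at the median; genes listed at 0 in any library are left out. Over the 4 libraries the lowest mitochondrial mRNA averages 611 FPKM and the highest nuclear gene 369 FPKM. The read-through genes NDUFC2-KCTD14 and ATP5MF-PTCD1 are included.

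Among the nuclear OXPHOS genes few transcripts moved past the limits. A gene was called when the adjusted p of edgeR's quasi-likelihood test, fitted across all 17374 tested genes, was under 0.05 and its fold above 1.5. By that rule 4 of 81 tested nuclear members were called higher with CBL0137 and 6 lower, which is 12.3% of them. Over all tested genes 33.4% were called, 18.2% higher and 15.1% lower, and over protein-coding genes 32.7%. Among the 10207 genes with at least 10 CPM in at least 2 libraries, which include 64 of the 81 nuclear members, 28.0% were called. In the fit on that set 2 of the 64 were called higher and 3 lower. The other 8 nuclear members had too few counted reads to be tested. They were COX4I2, COX6A2, COX7A1, COX7B2, COX8C, ATP5MGL and the read-through genes NDUFC2-KCTD14 and ATP5MF-PTCD1.

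Fold changes of the nuclear members were small, and more of them lay on the lower side under this scaling. Their median log2 fold change was -0.17, with 28 above 0 and 53 below, and their median absolute log2 fold change was 0.29 against 0.44 for all tested genes. The median over all tested genes was 0.01. With library size alone as the scaling the median of all genes was 0.17 and that of the nuclear members -0.01, with 40 above 0 and 41 below. The distance of the nuclear median below that of all genes was the same, -0.18 log2, under both. The split of calls depends on the scaling, for these members as for all genes. Library size alone gave 6 higher and 3 lower, beside 4138 and 1877 of all 17374 tested genes. Upper-quartile factors gave 5 higher and 4 lower, beside 3556 and 2271 of all genes. With the trend of fold change with exonic length and GC content taken out, 0 were higher and 12 lower. Over all genes that fit called 2591 higher and 3159 lower. Leaving out CBL0137 replicate 2 or DMSO replicate 2 gave 2 higher and 10 lower calls each, and leaving out DMSO replicate 1 gave 2 higher and 4 lower. Without a fold limit 49 of the 81 nuclear members had an adjusted p under 0.05 in edgeR's test, 10 on the higher and 39 on the lower side, against 61.7% of all tested genes. The 2 groups of libraries did not overlap for 62 of the 81, against 79.9% of all tested genes.

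**Figure D2:**
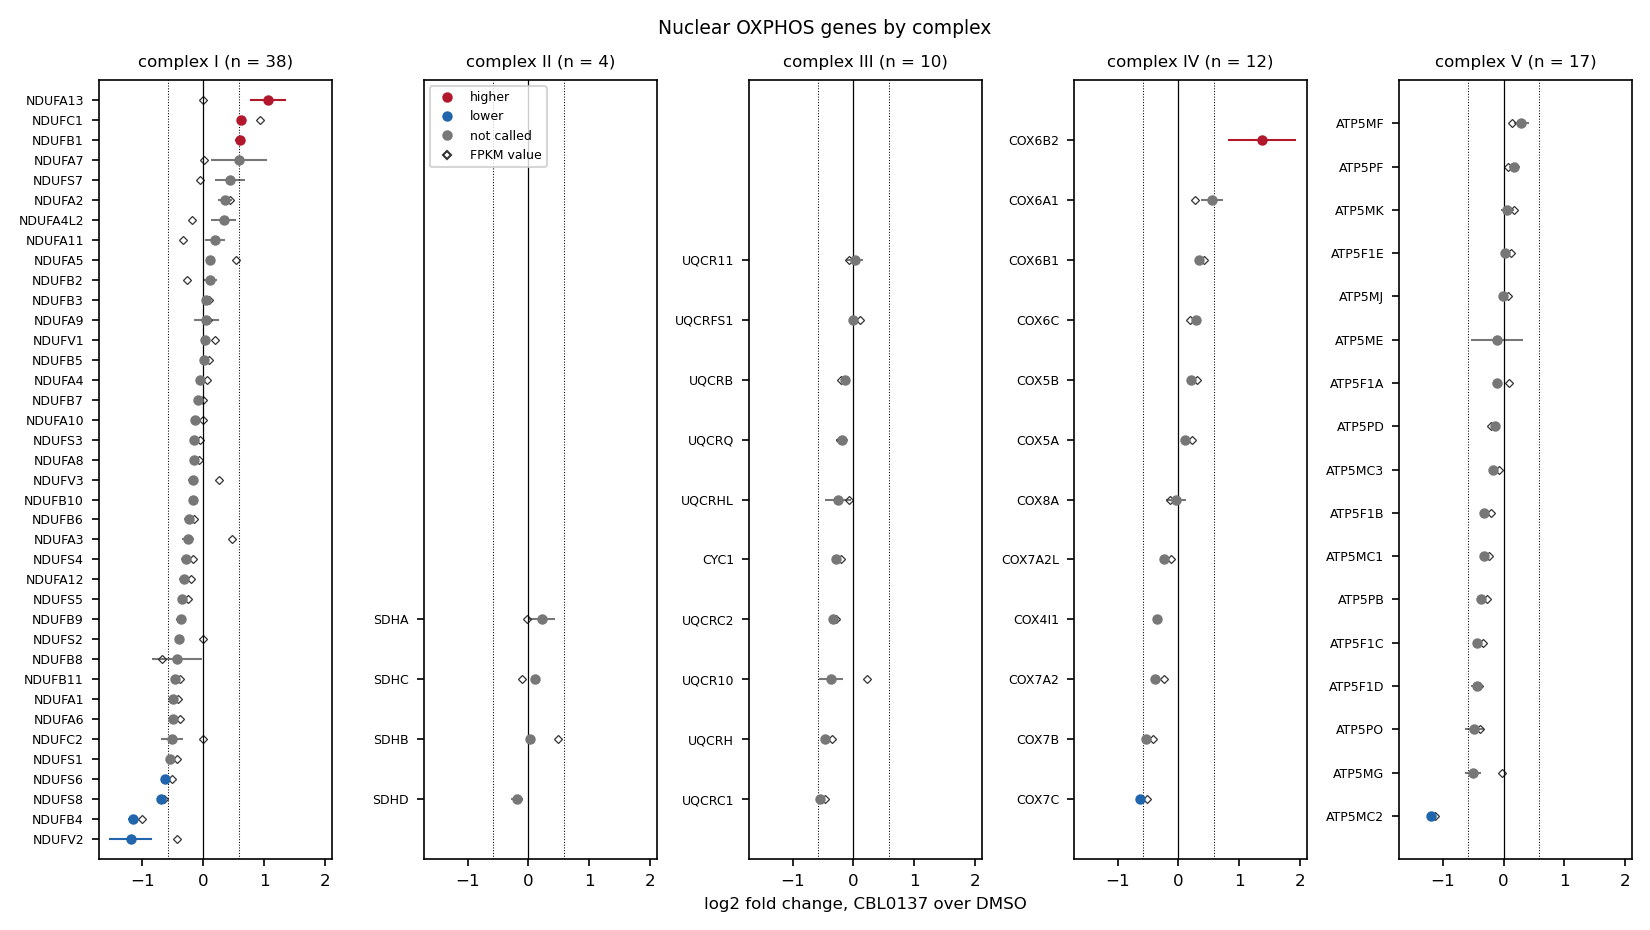
Log2 fold change of each tested nuclear OXPHOS gene, CBL0137 over DMSO (filled points, with 1 SE), by complex; open diamonds give the difference from log2(FPKM + 1), and dotted lines mark a fold of 1.5 either way. Called genes are few in every complex and most points lie between the dotted lines, with ATP5MC2 and NDUFB4 farthest to the lower side among the well-covered genes.

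ATP5MC2 fell the most among the well-covered members. It encodes the c subunit of the membrane ring of the ATP synthase, the part that turns as protons pass, and lies at chr12:54026510-54071192 on the minus strand (GRCh37). It had 87.0 and 90.6 CPM with CBL0137, against 207 and 197 CPM with DMSO. Both treated libraries lay far below both vehicle libraries, with a log2 fold change of -1.19 (adjusted p = 1.1e-21 in edgeR, SE 0.056). ATP5MC1 and ATP5MC3, separate genes for the same mature c subunit, had log2 fold changes of -0.32 (SE 0.068) and -0.18 (SE 0.053) and were not called. Per length, ATP5MC2 stood at 72.1 and 74.3 FPKM with CBL0137 and 163 and 158 FPKM with DMSO. ATP5MC1 stood at 64.1 and 60.4 FPKM with CBL0137 and 70.8 and 76.8 FPKM with DMSO, and ATP5MC3 at 25.8 and 27.2 FPKM with CBL0137 and 29.1 and 27.2 FPKM with DMSO. In the DMSO libraries ATP5MC2 was the highest of the 3 genes, and in the CBL0137 libraries it lay closer to ATP5MC1.

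ATP5MC2 was the sole called gene among 17 tested nuclear members of complex V, while 33.4% of all tested genes were called. The 5 tested subunits of the F1 catalytic head had a median log2 fold change of -0.32 with 0 called, the 4 of the peripheral stalk -0.25 with 0 called, and the 8 of the Fo membrane part -0.14 with 1 called lower. ATP5F1B, in the F1 head, had a log2 fold change of -0.32 (SE 0.052). Members of complex V that were not called lay between -0.50 for ATP5MG and 0.29 for ATP5MF, both small subunits of the membrane part.

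NDUFB4 fell the most among the well-covered complex I subunits. It is an accessory subunit of the membrane arm at chr3:120315175-120321354 on the plus strand (GRCh37). It had 36.4 and 41.0 CPM with CBL0137, against 88.4 and 84.6 CPM with DMSO. Its log2 fold change was -1.16 (adjusted p = 2.7e-18 in edgeR, SE 0.069). The groups did not overlap, which also held for 79.9% of all tested genes.

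NDUFS8 and NDUFS6 also fell. NDUFS8, a core subunit that carries iron-sulfur clusters, lies at chr11:67798084-67804111 on the plus strand. It had 47.2 and 40.3 CPM with CBL0137, against 71.8 and 69.5 CPM with DMSO, a log2 fold change of -0.69 (adjusted p = 4.2e-11 in edgeR, SE 0.072). NDUFS6, an accessory subunit that binds zinc, lies at chr5:1801521-1816162 on the plus strand. It had 46.1 and 48.1 CPM with CBL0137, against 76.9 and 69.2 CPM with DMSO, a log2 fold change of -0.63 (adjusted p = 1.3e-10 in edgeR, SE 0.069). NDUFS6 passed the fold limit by little and was called in 8 of 14 alternative settings, among those lost the fit without DMSO replicate 1 (-0.57). NDUFS8 was called in 13 of 14 and lost its call under library size alone (-0.53).

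NDUFC1 and NDUFB1, small membrane-arm subunits, rose. NDUFC1, at chr4:140188034-140223705 on the minus strand, had 87.0 and 86.8 CPM with CBL0137, against 54.6 and 58.4 CPM with DMSO. Its log2 fold change was 0.62 (adjusted p = 2.8e-11 in edgeR, SE 0.064). NDUFB1, at chr14:92582466-92588261 on the minus strand, had 49.6 and 53.7 CPM with CBL0137, against 37.2 and 30.9 CPM with DMSO. Its log2 fold change was 0.60 (adjusted p = 2e-08 in edgeR, SE 0.080). The groups did not overlap in either gene, as in 79.9% of all tested genes. Both calls ended when the trend of fold change with exonic length and GC content over all genes was taken out, which left log2 fold changes of 0.41 for NDUFC1 and 0.56 for NDUFB1. The call of NDUFC1 also ended without DMSO replicate 1 (0.56), and that of NDUFB1 without CBL0137 replicate 2 (0.54) or DMSO replicate 2 (0.46). NDUFC1 shares exonic bases with MGARP on the same strand and NAA15 on the other.

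Complex I thus held calls in both directions. Of 38 tested nuclear complex I members, 3 were called higher and 4 lower, with a median log2 fold change of -0.16. The 7 core subunits, which hold the redox centres or the NADH and quinone sites, had 0 called higher and 2 lower, a share of 28.6% against 33.4% of all tested genes, with a median of -0.40. With FPKM their median was -0.05 and 1 was called lower, NDUFS8. The 31 tested accessory subunits had 3 called higher and 2 lower, with a median of -0.16. NDUFS1, the large iron-sulfur core subunit, was just short of the fold limit at -0.55 (adjusted p = 1.4e-11 in edgeR, SE 0.055).

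**Figure D3:**
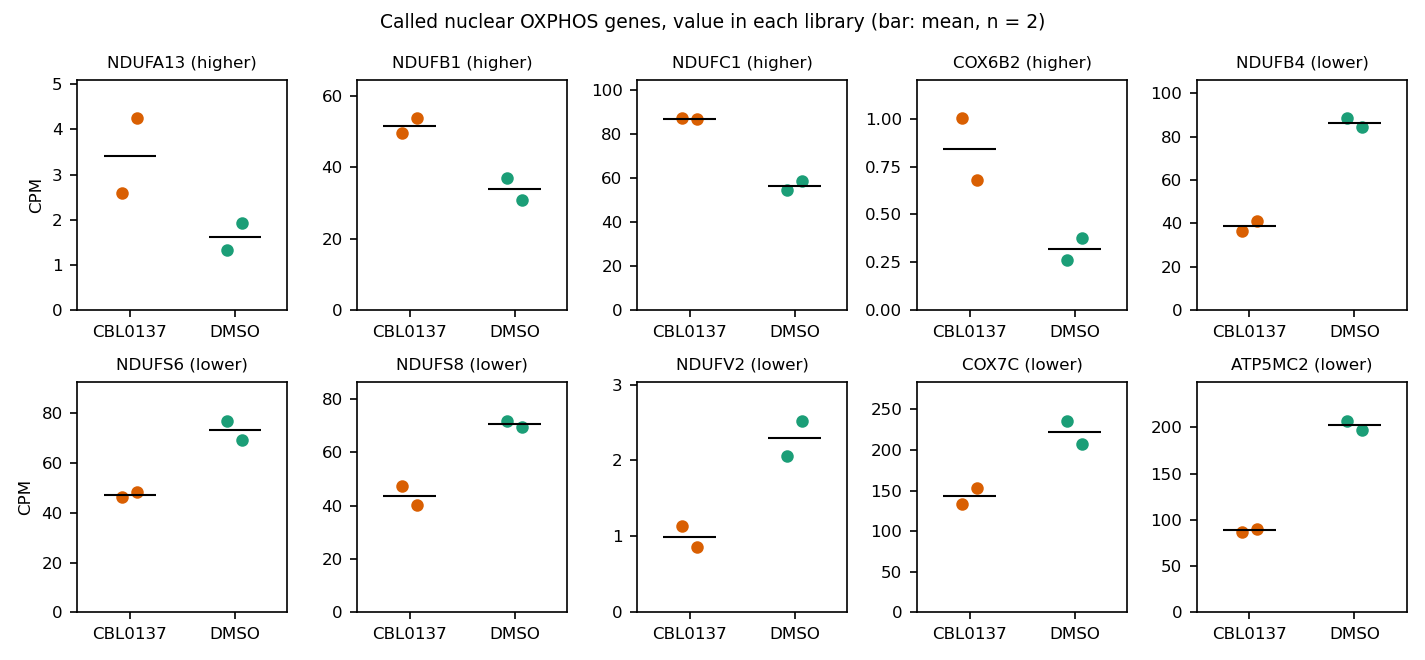
CPM (TMM scaled) of the 10 called nuclear OXPHOS genes in each library, CBL0137 left of DMSO, with a bar at the mean of 2 libraries. The libraries of the 2 groups do not overlap in any of the 10 genes, which were called from these same libraries. The groups do not overlap for 79.9% of all tested genes. NDUFA13, COX6B2 and NDUFV2 lie under 5 CPM.

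The remaining called member of complex IV with ample reads was COX7C, a small subunit of cytochrome c oxidase at chr5:85913745-85916779 on the plus strand. COX7C had 133 and 153 CPM with CBL0137, against 236 and 208 CPM with DMSO, a log2 fold change of -0.63 (adjusted p = 5.1e-12 in edgeR, SE 0.061). It was called in 6 of 14 alternative settings, with log2 fold changes between -0.74 and -0.47, and not without CBL0137 replicate 1 (-0.54) or DMSO replicate 1 (-0.56). Of 12 tested nuclear members of complex IV, 1 was called higher and 1 lower, with a median of 0.03. Over all tested genes 33.4% were called. COX7B, another small subunit, had a log2 fold change of -0.53 (SE 0.060), and COX6B1, a subunit on the intermembrane side, 0.34 (SE 0.063), both without a call.

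Complex III had 0 of 10 tested nuclear members called, against 33.4% of all tested genes. Their median log2 fold change was -0.27. Under TMM scaling 9 of 10 lay below 0, against 8545 of all 17374 tested genes. The smallest p-values were those of UQCRC1, a core subunit, and UQCRH, the hinge subunit near cytochrome c1. UQCRC1 had 111 and 114 CPM with CBL0137, against 164 and 165 CPM with DMSO, a log2 fold change of -0.55 (adjusted p = 1.2e-11 in edgeR, SE 0.054). UQCRH had 179 and 191 CPM with CBL0137, against 267 and 245 CPM with DMSO, a log2 fold change of -0.47 (adjusted p = 7.2e-10 in edgeR, SE 0.055). Both differences exceeded the spread between libraries and stayed under the fold limit. UQCRC1 was called lower, at -0.91, when the trend with exonic length and GC content was taken out. UQCRHL, an intronless copy of UQCRH, had under 2 FPKM in every library.

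Complex II, which also acts in the tricarboxylic acid cycle, had 0 of 4 genes called, against 33.4% of all tested genes. Its median log2 fold change was 0.07. SDHB, the iron-sulfur subunit, had 95.4 and 93.8 CPM with CBL0137, against 97.1 and 88.0 CPM with DMSO. SDHC, a membrane anchor, had 109 and 122 CPM with CBL0137, against 106 and 108 CPM with DMSO. SDHD, the other anchor, had 27.5 and 34.9 CPM with CBL0137, against 38.8 and 32.3 CPM with DMSO, so the groups overlapped. SDHA, the flavoprotein, had 4.01 and 4.79 CPM with CBL0137, against 3.59 and 3.92 CPM with DMSO. Counted reads of SDHA stood for 104 bases at its FPKM, and it shares exonic bases with another annotated gene on the same strand. The log2 fold changes were 0.03 for SDHB (SE 0.060), 0.11 for SDHC (SE 0.059), -0.19 for SDHD (SE 0.094) and 0.23 for SDHA (SE 0.22), and edgeR's smallest adjusted p among them was 0.08.

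Some members have far fewer counted reads than their deposited FPKM would give, which limits the counts for them. HTSeq leaves out reads that fall in overlapping genes, and the counted reads of 12 of the 80 nuclear members measured both ways stood for under 100 bases at their FPKM and the library's depth. For NDUFA13, an accessory subunit, they stood for 14.7 bases, and for NDUFV2, a core iron-sulfur subunit of the NADH module, 26.8 bases. Annotated genes share exonic bases with each, YJEFN3 among them for NDUFA13. NDUFA13 had 57 and 94 reads with CBL0137, against 25 and 36 reads with DMSO, and a log2 fold change of 1.07 (adjusted p = 0.002 in edgeR, SE 0.30). Its FPKM gave 166 and 186 with CBL0137, against 184 and 169 with DMSO, and these overlap, with a log2(FPKM + 1) difference of -0.01. Without CBL0137 replicate 2 its count-based value was 0.67 and not called. NDUFV2 had 25 and 19 reads with CBL0137, against 39 and 47 reads with DMSO, and a log2 fold change of -1.20 (adjusted p = 0.0033 in edgeR, SE 0.35). Its FPKM gave 49.4 and 52.0 with CBL0137, against 68.9 and 68.9 with DMSO, a log2(FPKM + 1) difference of -0.44 that was not called. Where on these genes the counted reads fall was not tested. Of the 10 called members, 6 have pseudogenes in the table that carry their symbol, 25 in all. The reads of these copies came to at most 0.421% of the member's own reads except for NDUFV2, whose copy had 45 and 50 reads with CBL0137 and 82 and 50 reads with DMSO, more than the gene itself.

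Set against each other over the 80 members, counts and FPKM called 3 members lower in both, NDUFB4, NDUFS8 and ATP5MC2, and 2 higher in both, NDUFB1 and NDUFC1. Counts alone called 4, and FPKM alone called NDUFB8 lower, an accessory complex I subunit with 18 and 23 reads with CBL0137 and 24 and 23 reads with DMSO. With limma on log2(FPKM + 1), 23.8% of 14451 genes were called, 13.3% higher and 10.5% lower, against 2 higher and 4 lower of 82 nuclear members. Spearman's rho between the count and FPKM values across genes, which share libraries and are not independent, was 0.83 over 65 members with under 20% of their exonic bases shared with another gene and 0.49 over the 15 others. In the count test, 2 of the 68 members whose reads stood for 100 bases or more were called higher and 5 lower. Over all tested genes 18.2% and 15.1% were called in that test.

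**Figure D4:**
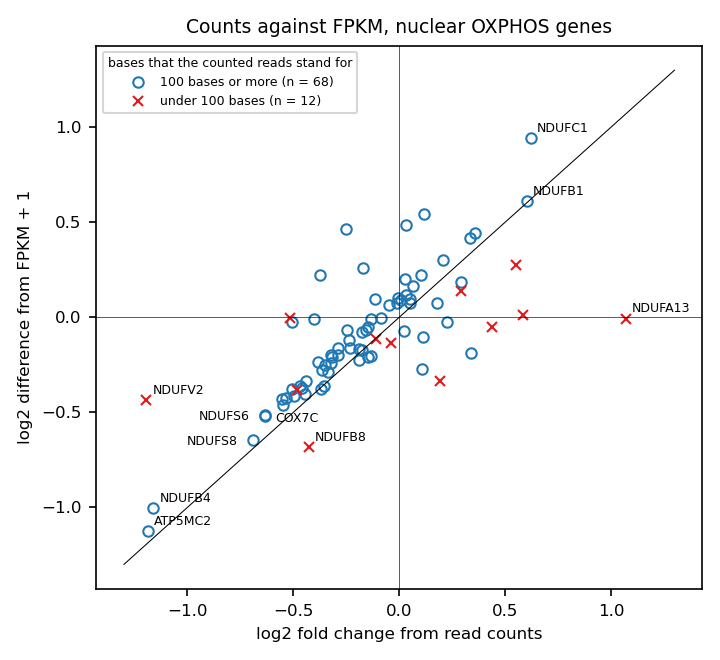
Log2 fold change from read counts (x axis) against the difference from log2(FPKM + 1) (y axis) for 80 nuclear OXPHOS genes, CBL0137 over DMSO, with the line of equal values; crosses are the 12 genes whose counted reads stand for under 100 bases. ATP5MC2, NDUFB4, NDUFS8, NDUFB1 and NDUFC1 lie near or above the line on both measures, whereas NDUFA13 lies at 1.07 on counts and -0.01 on FPKM.

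The promoters of the 6 called genes with under 20% of their exonic bases shared with another gene are shown to compare them for a core of an NRF1 site, which 3 of the 5 called lower hold (ATP5MC2, NDUFB4 and NDUFS6). The other two called lower, NDUFS8 and COX7C, and NDUFB1, called higher, hold none of the motifs searched in these bases. NRF1 is a transcription factor known to act on many nuclear genes for respiratory subunits. Each sequence gives the 250 bases before the RefSeq start of the gene (GRCh38.p14), written 5′ to 3′ on the gene's strand, with GCATGCGC or its reverse complement in capitals. The windows are chr12:53676084-53676333 on the minus strand for ATP5MC2, chr3:120596086-120596335 on the plus strand for NDUFB4, chr5:1801157-1801406 on the plus strand for NDUFS6, chr11:68030431-68030680 on the plus strand for NDUFS8, chr5:86617691-86617940 on the plus strand for COX7C, and chr14:92121707-92121956 on the minus strand for NDUFB1.
ATP5MC2: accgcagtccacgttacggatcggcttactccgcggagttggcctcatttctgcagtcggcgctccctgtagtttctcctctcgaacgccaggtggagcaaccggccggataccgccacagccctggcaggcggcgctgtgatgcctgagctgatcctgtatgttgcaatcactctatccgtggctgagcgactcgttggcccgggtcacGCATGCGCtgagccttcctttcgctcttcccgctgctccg
NDUFB4: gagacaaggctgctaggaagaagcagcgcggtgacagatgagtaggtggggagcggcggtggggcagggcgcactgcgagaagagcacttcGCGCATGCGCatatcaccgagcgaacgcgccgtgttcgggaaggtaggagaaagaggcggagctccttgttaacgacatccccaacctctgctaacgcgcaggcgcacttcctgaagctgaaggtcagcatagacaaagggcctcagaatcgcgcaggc
NDUFS6: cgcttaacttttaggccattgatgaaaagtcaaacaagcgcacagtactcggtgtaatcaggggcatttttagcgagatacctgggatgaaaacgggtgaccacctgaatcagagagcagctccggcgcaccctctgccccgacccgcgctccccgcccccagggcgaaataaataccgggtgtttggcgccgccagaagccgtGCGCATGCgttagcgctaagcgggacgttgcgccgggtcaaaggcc
NDUFS8: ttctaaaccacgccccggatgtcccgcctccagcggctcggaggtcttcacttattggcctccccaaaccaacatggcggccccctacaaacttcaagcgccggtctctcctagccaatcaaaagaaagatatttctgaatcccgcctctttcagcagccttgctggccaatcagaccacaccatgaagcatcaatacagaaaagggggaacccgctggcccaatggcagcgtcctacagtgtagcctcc
COX7C: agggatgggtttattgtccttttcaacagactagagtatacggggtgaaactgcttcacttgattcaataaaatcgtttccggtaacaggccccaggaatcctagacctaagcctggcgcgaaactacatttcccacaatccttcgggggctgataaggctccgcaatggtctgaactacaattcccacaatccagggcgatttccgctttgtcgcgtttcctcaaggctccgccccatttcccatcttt
NDUFB1: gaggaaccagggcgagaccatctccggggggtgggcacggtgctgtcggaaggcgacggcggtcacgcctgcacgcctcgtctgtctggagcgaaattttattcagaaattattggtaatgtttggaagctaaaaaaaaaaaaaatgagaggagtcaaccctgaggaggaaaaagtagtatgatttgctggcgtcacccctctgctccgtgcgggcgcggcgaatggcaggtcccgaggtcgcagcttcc
The match begins at position -40 from the start in ATP5MC2 and at -46 in NDUFS6, and in NDUFB4 matches to both strands overlap, beginning at -159 and -157.

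In all, 3 motifs were searched on both strands in the 250 bases before and 50 after the start of 69 nuclear members that had a promoter entry. GCATGCGC (NRF1) was in 13 of 69 (18.8%), against 4.26% of 15843 protein-coding promoters. CCGGAAG (ETS family) was in 20 of 69 (29.0%), against 14.2%, and AAGATGGCG (YY1) in 8 of 69 (11.6%), against 2.74%. By call, GCATGCGC was in 3 of 6 members called lower, 0 of 4 called higher and 10 of 55 tested without a call. CCGGAAG was in 0 of 6 called lower, 1 of 4 called higher and 19 of 55 without a call. These are matches of letters, with no measure of binding in these data.

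The 13 mitochondrial mRNAs moved little and in both directions. In the count test 0 of 13 were called, against 33.4% of all tested genes. Their median log2 fold change was -0.00, between -0.30 for MT-CO2 and 0.37 for MT-ND6. Without a fold limit 8 of 13 had an adjusted p under 0.05 in edgeR's test, 5 on the higher and 3 on the lower side, beside 61.7% of all tested genes. With library size alone, 10 of 13 lay above 0 and their median was 0.15, beside a median of 0.17 over all genes. The reads of all genes on the mitochondrial genome made up 3.72% and 3.87% of gene-assigned reads with CBL0137 (95% Wilson intervals 3.71 to 3.72 and 3.86 to 3.88), against 3.58% and 3.44% with DMSO (3.57 to 3.59 and 3.44 to 3.45). The groups did not overlap, with means of 3.79% ± 0.11 with CBL0137 and 3.51% ± 0.097 with DMSO (SD, n = 2 each). After TMM scaling the 13 mRNAs summed to 30448 ± 1233 CPM with CBL0137 and 31417 ± 1157 CPM with DMSO, a difference on the opposite side and within the spread, so its direction depends on the scaling. With 2 libraries against 2, the smallest p of an exact two-sided permutation test is 2 of 6 labellings, far above 0.05, so no p is given for these sums.

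The balance of the genomes can be read within each library, free of the scaling between libraries. The FPKM of the 13 mitochondrial mRNAs summed to 4.81 and 4.88 times that of the 89 nuclear members with CBL0137, against 4.27 and 4.38 times with DMSO. The treated libraries both lay above the vehicle libraries. The nuclear FPKM sum includes the read-through genes NDUFC2-KCTD14 and ATP5MF-PTCD1, which share most exonic bases with other genes. The nuclear members summed to 6408 and 6610 CPM with CBL0137, against 7838 and 7475 CPM with DMSO. As a share of gene-assigned reads, the nuclear members made up 0.678% and 0.695% with CBL0137, against 0.738% and 0.709% with DMSO.

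**Figure D5:**
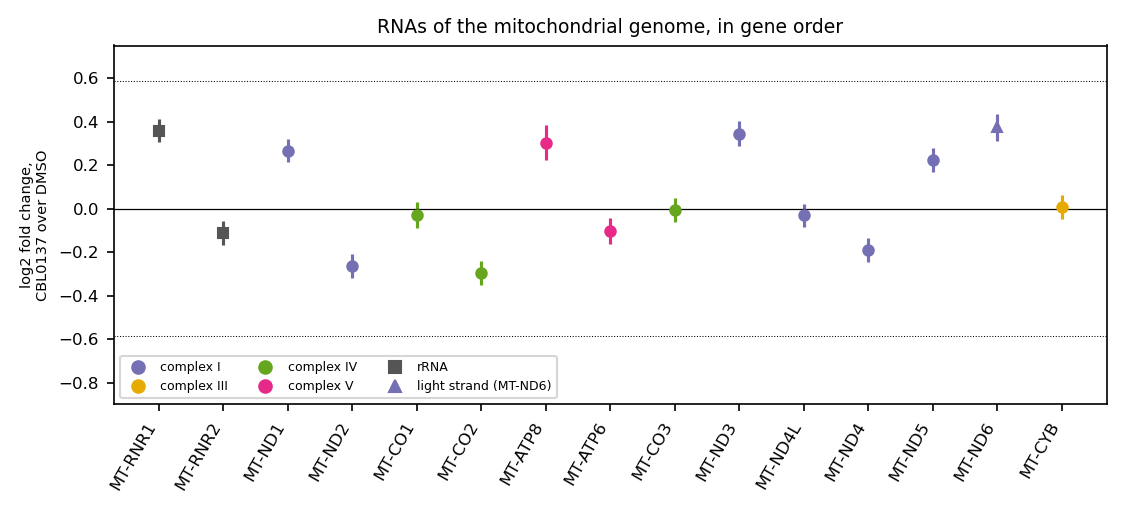
Log2 fold change of the mitochondrial rRNAs and mRNAs, CBL0137 over DMSO, with 1 SE, in the order of their genes on the mitochondrial genome; dotted lines mark a fold of 1.5. All 15 RNAs lie between the dotted lines, on both sides of 0, with MT-CO2 lowest at -0.30 and MT-ND6 highest at 0.37.

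Subunits of complex I encoded in the mitochondrion split. MT-ND6, the only mRNA of the 13 on the light strand, had 440 and 541 CPM with CBL0137, against 399 and 359 CPM with DMSO, a log2 fold change of 0.37 (SE 0.064). MT-ND3 had 336 and 373 CPM with CBL0137, against 291 and 267 CPM with DMSO, a log2 fold change of 0.35 (SE 0.056). MT-ND1 had 1698 and 1805 CPM with CBL0137, against 1494 and 1418 CPM with DMSO, and MT-ND5 had 2658 and 2834 CPM with CBL0137, against 2371 and 2326 CPM with DMSO. Their log2 fold changes were 0.27 (SE 0.054) and 0.23 (SE 0.055). These 4 mRNAs lay above 0 with each of the 4 scalings tried. Their log2(FPKM + 1) differences lay between 0.32 and 0.44, with adjusted p under 0.05 in limma. For MT-ND6 the adjusted p in DESeq2 was 0.052.

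MT-ND2 and MT-ND4 lay on the other side. MT-ND2 had 1094 and 1189 CPM with CBL0137, against 1425 and 1314 CPM with DMSO, a log2 fold change of -0.26 (SE 0.055). MT-ND4 had 4017 and 4178 CPM with CBL0137, against 4850 and 4500 CPM with DMSO, a log2 fold change of -0.19 (SE 0.057). Both stayed below 0 under library size alone, at -0.10 and -0.03. Their log2(FPKM + 1) differences were -0.14 and -0.08, with adjusted p of 0.16 and 0.34 in limma. MT-ND4L, whose reading frame overlaps that of MT-ND4, had 381 and 407 CPM with CBL0137, against 419 and 386 CPM with DMSO, and its groups overlapped.

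In the other complexes MT-CO2 stood lowest, with 3170 and 3358 CPM with CBL0137, against 4092 and 3922 CPM with DMSO, a log2 fold change of -0.30 (adjusted p = 1.5e-05 in edgeR, SE 0.056). The log2(FPKM + 1) difference of MT-CO2 was -0.19 (adjusted p = 0.09 in limma, SE 0.073). MT-CO1 and MT-CO3, the other catalytic-core subunits of complex IV, had log2 fold changes of -0.03 (SE 0.059) and -0.00 (SE 0.055), and MT-CYB of complex III 0.01 (SE 0.054). MT-ATP6 had -0.10 (SE 0.060) and MT-ATP8 0.30 (SE 0.080). The MT-ATP8 frame overlaps MT-ATP6, and its counted reads stood for 15.3 bases at its FPKM, which gave a log2(FPKM + 1) difference of 0.06. MT-CO1, MT-CO3, MT-CYB, MT-ND4L and MT-ATP6 lay above 0 under library size alone.

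The composition of the 13 mRNAs in reads shows the same split without any scaling between libraries. MT-CO1 made up 35.9% and 35.5% of their reads with CBL0137, against 34.99% and 35.56% with DMSO, and the groups overlapped. MT-CO2 made up 10.7% and 10.7% with CBL0137, against 12.7% and 12.8% with DMSO. MT-ND4 made up 13.6% and 13.3% with CBL0137, against 15.05% and 14.71% with DMSO. MT-ND5 made up 8.99% and 9.05% with CBL0137, against 7.35% and 7.60% with DMSO, and MT-ND1 5.74% and 5.76% with CBL0137, against 4.63% and 4.63% with DMSO. In MT-ND1, MT-ND4, MT-ND5 and MT-CO2 the libraries of a group lay closer to each other than the groups did.

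The ribosomal RNAs of the mitochondrion differed from each other as well. MT-RNR1, of the small subunit, had 697 and 684 CPM with CBL0137, against 532 and 544 CPM with DMSO, a log2 fold change of 0.36 (adjusted p = 9.5e-08 in edgeR, SE 0.052). MT-RNR2, of the large subunit, had 4791 and 4767 CPM with CBL0137, against 5212 and 5116 CPM with DMSO, a log2 fold change of -0.11 (adjusted p = 0.078 in edgeR, SE 0.056). Neither passed the fold limit. Nuclear copies of mitochondrial genes, to which mitochondrial reads can be assigned, summed to 125 and 133 CPM with CBL0137, against 133 and 113 CPM with DMSO, under the level of most of the 13 mRNAs.

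Isoforms of complex IV subunits that are known from heart, muscle, lung or testis stayed near 0. COX4I2, COX6A2, COX7A1 and COX7B2 had at most 2 reads in any library of either group, and COX8C had 2 and 7 reads with CBL0137 and 2 and 2 reads with DMSO. Their partners were abundant, with COX6A1 at 305 and 324 FPKM with CBL0137 and 269 and 252 FPKM with DMSO, and COX8A at 201 and 202 FPKM with CBL0137 and 222 and 220 FPKM with DMSO. COX4I1 had 95.7 and 108 FPKM with CBL0137, against 149 and 114 FPKM with DMSO, and a count-based log2 fold change of -0.36 (SE 0.056). COX6B2, known from testis, was called higher from 22 and 15 reads with CBL0137, against 5 and 7 reads with DMSO, with a log2 fold change of 1.37 (adjusted p = 0.033 in edgeR, SE 0.56). It stood at 0.446 and 0.573 FPKM with CBL0137, against 0.0234 and 0.270 FPKM with DMSO, while COX6B1 stood at 112 and 116 FPKM with CBL0137 and 82.6 and 86.9 FPKM with DMSO. Its call held in 4 of 14 alternative settings and ended when any single library was left out, with log2 fold changes between 1.07 and 1.63. NDUFA4L2, a hypoxia-induced relative of NDUFA4, had 106 and 117 reads with CBL0137, against 79 and 71 reads with DMSO, a log2 fold change of 0.34 (SE 0.21) that was not called. NDUFA4 itself stood at 89.1 and 99.0 FPKM with CBL0137 and 92.3 and 87.1 FPKM with DMSO, and its log2 fold change was -0.05 (SE 0.055). COX7A2, the partner of COX7A1, had 62.6 and 64.2 FPKM with CBL0137, against 74.1 and 75.6 FPKM with DMSO, and a count-based value of -0.39 (SE 0.061) without a call.

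Assembly factors build the complexes and are not part of the finished enzymes. Of 15 for complex I, 0 were called higher and 4 lower, with a median log2 fold change of -0.12, and with FPKM 1 was called higher and 2 lower. Over all tested genes 18.2% were higher and 15.1% lower in the count test. NDUFAF4 had 22.1 and 23.0 CPM with CBL0137, against 43.1 and 41.6 CPM with DMSO, a log2 fold change of -0.91 (adjusted p = 1.4e-12 in edgeR, SE 0.084). TIMMDC1, which joins membrane-arm modules, had 48.2 and 56.0 CPM with CBL0137, against 96.4 and 95.6 CPM with DMSO, a log2 fold change of -0.88 (adjusted p = 4.9e-15 in edgeR, SE 0.067). NDUFAF5 and NUBPL were the others called lower. Of 29 tested assembly factors of complexes II to V, 4 were called higher and 7 lower, with a median of -0.22, a share close to the background of 33.4%. With FPKM 3 of that list were called higher and 5 lower, against 13.3% and 10.5% of all genes tested with FPKM.

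TMEM70, which helps to assemble the c ring of the ATP synthase, had 141 and 150 CPM with CBL0137, against 314 and 305 CPM with DMSO. Its log2 fold change was -1.09 (adjusted p = 4.5e-21 in edgeR, SE 0.053). UQCC2, which stabilises new cytochrome b, had 20.8 and 21.6 CPM with CBL0137, against 47.4 and 44.1 CPM with DMSO, a log2 fold change of -1.11 (adjusted p = 5.4e-15 in edgeR, SE 0.084). On the other side were SDHAF1, COX20, COA3 and PET100, with SDHAF1, a factor for the iron-sulfur subunit of complex II, at 1.21 (adjusted p = 2.7e-08 in edgeR, SE 0.16). COX20 had 75 and 106 reads with CBL0137, against 47 and 23 reads with DMSO, and was not called with FPKM (0.43). PET100 had 48 and 88 reads with CBL0137, against 25 and 11 reads with DMSO, and was also called higher with FPKM (1.13).

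Cytochrome c and ubiquinone carry electrons between the complexes. The list of CYCS and genes of ubiquinone synthesis had 1 gene called higher and 4 lower of 12 tested. Its median log2 fold change was -0.26, and over all tested genes 18.2% were called higher and 15.1% lower. CYCS, which encodes cytochrome c, had 192 and 203 CPM with CBL0137, against 387 and 385 CPM with DMSO, a log2 fold change of -0.96 (adjusted p = 1.6e-19 in edgeR, SE 0.053). COQ3, a methyltransferase of ubiquinone synthesis, had 16.4 and 16.6 CPM with CBL0137, against 41.0 and 37.7 CPM with DMSO, a log2 fold change of -1.25 (adjusted p = 1.3e-15 in edgeR, SE 0.091). COQ8A, an atypical kinase of the same pathway, was called higher at 0.93 (SE 0.088).

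The machinery that copies and transcribes the mitochondrial genome had 0 of 14 tested genes called, with a median of -0.07. Over all tested genes 18.2% were called higher and 15.1% lower. SSBP1 and MGME1, a single-strand binding protein and an exonuclease of replication, had log2 fold changes of -0.41 (SE 0.059) and -0.38 (SE 0.066) and the smallest p-values of the list. Of 16 genes for stability and processing of mitochondrial RNA, 1 was called higher and 1 lower, beside the same shares over all tested genes. FASTKD5, which is needed to process mRNAs that tRNAs do not flank, had 30.2 and 27.4 CPM with CBL0137, against 14.2 and 13.9 CPM with DMSO, a log2 fold change of 1.03 (adjusted p = 7.5e-12 in edgeR, SE 0.10). PNPT1, an exoribonuclease of the mitochondrion, had 56.3 and 58.8 CPM with CBL0137, against 89.1 and 83.7 CPM with DMSO, a log2 fold change of -0.59 (SE 0.064), which passed the fold limit by little.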

How the data were processed

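Poly(A) selection, strandedness and annotation release: not given in the sources used here. As the series' design text states, the authors trimmed reads with Trim Galore, aligned them to hg19 with HISAT2, made the deposited raw counts per gene with HTSeq 0.11.1, tested them with DESeq2 1.26.0 and computed the deposited FPKM from read number, gene length and depth. The submitters' processing notes also name mm10, without a role. Reads in no gene made up 10.3% and 10.2% of counted reads with CBL0137 and 8.52% and 8.82% with DMSO, and reads in overlapping genes 8.75% and 8.78% with CBL0137 and 9.34% and 9.27% with DMSO. These and a stray header, 6 entries that name no gene, stayed out of library sizes and tests.

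Counts were tested with edgeR 4.0.16 (TMM, filterByExpr, quasi-likelihood F test, R 4.3.3) on the whole table with Benjamini-Hochberg adjustment. Calls needed an adjusted p under 0.05 and a fold above 1.5, as in the authors' design text. SE is the absolute log2 fold change over the square root of F. TMM factors were 1.06 and 1.05 with CBL0137 and 0.943 and 0.95 with DMSO, and the common dispersion gave a coefficient of variation of 4.11% between replicates. Replicates differed by more than sampling noise (chi-square per degree of freedom 2.68 with CBL0137 and 2.95 with DMSO). FPKM were tested as log2(FPKM + 1) with limma 3.58.1 where at least 1 FPKM was reached in at least 2 libraries. Intervals cover counting error only. The edgeR script was tested on simulated data. DESeq2 1.42.0 was an alternative.

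Gene positions, exon overlap, length and GC content were taken from the GRCh37 (hg19) mapping of GENCODE release 44, which held 58524 of the 60617 gene entries. Promoters came from RefSeq, which matched 69 of 89 nuclear members by symbol. The bases that counted reads stand for are the reads divided by FPKM and depth. The text names all mitochondrial mRNAs, the SDH genes, up to 3 called members of each complex and direction with the smallest p (2 where none was called), fixed isoform pairs and the 2 members of each related list with the smallest p. Other genes, such as ATP5MC1, ATP5MC3, NDUFS1, NDUFV2, NDUFB8, ATP5F1B, ATP5MG, UQCRHL and the markers, were named after their values were seen. The members, lists and motifs were chosen with earlier results of these data known.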

Additional observations from a re-analysis of the deposited data

How the results depend on the processing

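The alternatives on shared exonic bases and on bases behind the reads were chosen after seeing the data. ATP5MC2 and NDUFB4 were called lower in all 14 alternative fits, with log2 fold changes between -1.27 and -1.03 and between -1.256 and -1.002. The main counts of called nuclear members, 4 higher and 6 lower, became 0 and 12 with the length and GC trend taken out (nuclear median -0.25, 2 called in complex III, 0 in IV, 2 in V), and mitochondrial genes had no such correction. With library size alone 3 were lower (nuclear median -0.011, mitochondrial median reversed to 0.15). Upper-quartile factors gave a nuclear median of -0.10 and reversed the mitochondrial median to 0.063. The stricter filter on low counts gave 2 higher and 3 lower (complex I 4, IV 0) and reversed the mitochondrial median to 0.071. No filter gave 1 higher (complex IV 1). Over all genes the stricter filter gave 1462 higher and 1393 lower of 10207, and no filter 2566 and 2476 of 33608. With FPKM, 2 were higher for either pseudocount, 0 were called in complex IV for either, and a pseudocount of 0.1 gave 3 lower and 4 in complex I, and NDUFA13 reversed to -0.0068 with 1 and -0.0068 with 0.1. Over all 14451 genes FPKM called 1918 higher and 1518 lower with a pseudocount of 1, and 2370 and 1778 with 0.1. DESeq2 called 1 in complex IV, and 2564 higher and 2376 lower over all genes. Without a fold limit 10 nuclear genes were higher and 39 lower, 5 and 3 mitochondrial ones, with 30 in complex I, 5 in III, 11 in IV and 11 in V. Over all tested genes 61.7% were called without that limit. A fold above 2 left 2 higher and 3 lower (complex I 3, IV 1). The share of all genes past a fold of 2 is not given here. Members with under 20% of exonic bases shared had 1 higher of 65 tested (complex I 4, IV 1), beside 18.2% of all tested genes. Leaving out 1 library at a time gave 2 to 3 higher and 4 to 10 lower nuclear calls, 5 to 8 calls in complex I, 0 to 1 in III, 0 to 3 in IV and 1 to 2 in V, with the 10 lower calls seen without CBL0137 replicate 2 and without DMSO replicate 2. The lone library of a group is then assumed to vary like the other group. The replicate numbers do not show a pairing. Over genes, the difference between replicates 1 and 2 had a correlation of 0.0196 between the 2 groups. A fit with the replicate number as a block kept 4 higher and 6 lower nuclear calls and 0 mitochondrial ones, with no named gene changing its call. The cause of these shifts was not tested. COX6B2, at 5 to 22 reads a library, is limited by depth.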

Other observations

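Genes next to respiration that are not OXPHOS members gave the following values. The mitochondrial chaperones and proteases of the unfolded protein response had 0 of 7 tested genes called higher and 4 lower, with a median log2 fold change of -0.59, against 15.1% of all tested genes called lower. LONP1, a protease of the matrix, had 210 and 214 CPM with CBL0137, against 486 and 465 CPM with DMSO, a log2 fold change of -1.16 (adjusted p = 3e-22 in edgeR, SE 0.053). HSPA9, the matrix HSP70, had 580 and 620 CPM with CBL0137, against 1309 and 1289 CPM with DMSO, a log2 fold change of -1.12 (adjusted p = 2.4e-21 in edgeR, SE 0.054). CLPP, a matrix protease subunit, and ATF5, a transcription factor of the response, were the others called lower, at -0.59 (SE 0.076) and -0.80 (SE 0.057). CLPP passed the fold limit by little and was not called with FPKM (-0.40). With FPKM the list had 0 called higher and 3 lower. HSPE1 had few counted reads, 117 and 167 with CBL0137 and 113 and 93 with DMSO. Its FPKM lay on the higher side, 183 and 201 with CBL0137 against 126 and 133 with DMSO, a log2(FPKM + 1) difference of 0.56 without a call.

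In the tricarboxylic acid cycle 0 of 14 tested genes were called higher and 2 lower, against 18.2% and 15.1% of all tested genes. The median was -0.20. SUCLG2, the subunit of succinyl-CoA ligase that sets its use of GDP, had 2.32 and 3.16 CPM with CBL0137, against 12.95 and 13.75 CPM with DMSO, a log2 fold change of -2.28 (adjusted p = 7.3e-15 in edgeR, SE 0.18). IDH2, the NADP-dependent isocitrate dehydrogenase of the matrix, had 241 and 233 CPM with CBL0137, against 365 and 347 CPM with DMSO, a log2 fold change of -0.59 (adjusted p = 6.6e-13 in edgeR, SE 0.052). It passed the fold limit by little and was not called with FPKM (-0.46).

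Of 10 regulators known to act on OXPHOS genes, 0 were called higher and 2 lower, against 18.2% and 15.1% of all tested genes. GABPB1, a subunit of an ETS-family factor, had 21.7 and 18.6 CPM with CBL0137, against 39.9 and 38.9 CPM with DMSO, a log2 fold change of -0.97 (adjusted p = 1.6e-12 in edgeR, SE 0.089), while its DNA-binding partner GABPA had a log2 fold change of -0.01 (SE 0.059). MYC had 227 and 228 CPM with CBL0137, against 382 and 380 CPM with DMSO, a log2 fold change of -0.74 (adjusted p = 3.3e-16 in edgeR, SE 0.052). NRF1 had 26.4 and 27.3 CPM with CBL0137, against 36.1 and 37.1 CPM with DMSO, a log2 fold change of -0.44 (SE 0.083) that was not called. The coactivators PPARGC1A and PPARGC1B had count-based log2 fold changes of 0.05 (SE 0.17) and -0.10 (SE 0.084). Their FPKM were low and differed from the counts. PPARGC1A stood at 0.776 and 0.605 FPKM with CBL0137 and 0.185 and 0.192 FPKM with DMSO, too low to be tested with FPKM. PPARGC1B stood at 0.411 and 1.43 FPKM with CBL0137 and 1.93 and 2.52 FPKM with DMSO, a log2(FPKM + 1) difference of -0.79 without a call.

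Across the 81 tested nuclear members, log2 fold change and GC content had a Spearman's rho of 0.24, and across 17252 tested genes with an annotation also 0.24. Genes share libraries and are not independent, so these are descriptions. The members' median exonic length was 2708 bases, against 4629 bases for all tested genes, and their median GC content 47.1%, against 47.7%.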
